A study of Mus musculus with 6 samples.

Results

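Angiotensinogen (Agt), the angiotensin-converting enzyme (Ace), the angiotensin II receptors Agtr1a and Agtr2, and the natriuretic peptide receptors Npr1, Npr2 and Npr3 were followed through whole brown adipose tissue of C57BL/6 mice. These 7 genes, of the 45320 identifiers in each table, were listed by pathway, and each symbol matched 1 identifier. The genes were selected on pathway membership, with FPKM values already seen and Agt known to be highest among the untreated libraries in sample 14, so that order is given as a description. All mice were 4 weeks old when a diet rich in fat and sugar began, and ate it for 4 weeks before they were divided. The untreated group (samples 13, 14 and 15) stayed on the diet alone. The treated group (samples 17, 33 and 35) received the diet with RO5508887, a small-molecule inhibitor of BACE1, the protease that starts the amyloidogenic cleavage of APP. The duration and dose of the drug, the sex of the mice and any pooling of animals are not given in the sources used here. The tables of samples 33 and 35 held identical values for all 45320 identifiers and were counted as 1 library (treated 33/35), which left 3 untreated and 2 treated libraries. No label says that the samples came from separate animals, so a p-value here speaks for the spread among these libraries alone, which may be technical.

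The renin-angiotensin system starts from angiotensinogen, which renin cleaves to angiotensin I, and the converting enzyme turns that peptide into angiotensin II. The AT1 receptor (Agtr1a, Agtr1b) carries most actions of angiotensin II on vessels and salt balance, and the AT2 receptor (Agtr2) often opposes them. Natriuretic peptides act through the guanylyl cyclase receptors NPR-A (Npr1) and NPR-B (Npr2), which make cyclic GMP, whereas NPR-C (Npr3) has no cyclase domain and mainly removes the peptides. In fat cells cyclic GMP promotes lipolysis and the thermogenic programme, and the balance of NPR-A to NPR-C is used as a measure of how far a fat depot can respond to these peptides.

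The libraries differed in tissue content before any comparison of groups. Values were in FPKM, fragments scaled by transcript length and sequencing depth, so levels can be compared between genes. Read totals were unknown, but steps between low values placed the depth of the other libraries at 0.810 to 1.01 times that of untreated 13. All 10 brown adipocyte markers were above 0 in every library, and their summed level was 1858 FPKM for untreated 14, 5916 and 6256 FPKM for untreated 13 and 15, and 4358 and 5153 FPKM under treatment. Skeletal muscle markers (28 of 29 matched) gave 8.25% of all FPKM outside mitochondrial genes for untreated 14, 0.0324% and 0.0309% for untreated 13 and 15, 3.32% for treated 17 and 1.44% for treated 33/35. Of these markers, 27 were above 0 in every library, and Myh4 was listed at 0 in untreated 14 and both treated libraries. In whole tissue, fewer cells of a type and less RNA per cell cannot be told apart.

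The natriuretic receptors led the 7 genes in level, followed by Ace, Agtr1a, Agt and Agtr2. Npr3 was the most abundant at 64.1 ± 8.19 FPKM (SD, n = 5 libraries), above 90.3% of the genes tested, and exceeded Npr1 in 5 of 5 libraries without overlap of their ranges. Npr1 (26.0 ± 9.20 FPKM) and Npr2 (23.1 ± 5.22 FPKM) did not differ beyond their spread, with Npr1 above Npr2 in 4 of 5 libraries. Ace followed at 12.1 ± 5.27 FPKM, below Npr2 in every library although the ranges of the 2 genes overlapped. Agtr1a (3.26 ± 0.724 FPKM) and Agt (1.99 ± 2.45 FPKM) overlapped, with Agtr1a the higher in 4 of 5 libraries. Agtr2 stood last at 0.0134 ± 0.00910 FPKM and overlapped no other member.

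**Figure D1:**
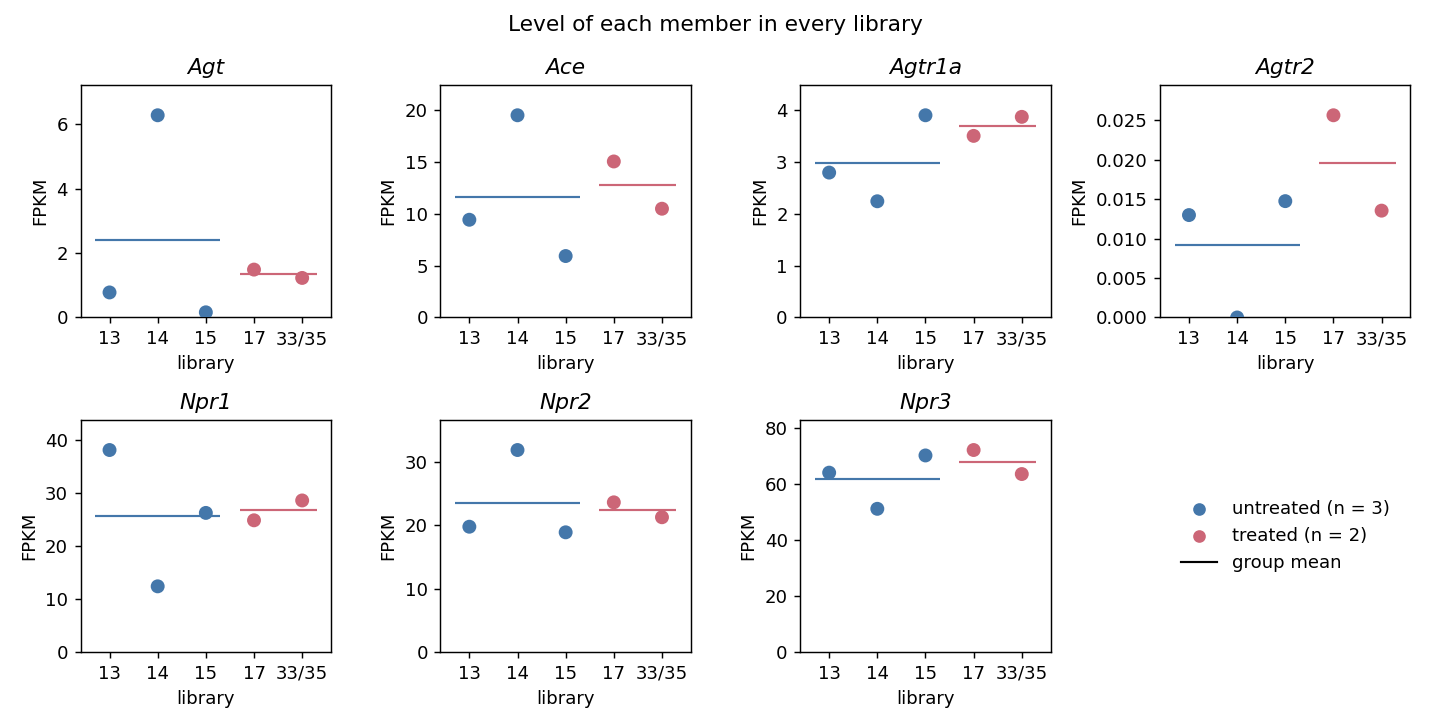
FPKM (vertical axes, each from 0 and on its own scale) of each member in the 5 libraries (horizontal axes), with untreated libraries in blue, treated libraries in red and lines at the group means. Untreated 14 is the highest library for Agt, Ace and Npr2 and the lowest for Agtr1a, Agtr2, Npr1 and Npr3, and in every panel the groups overlap.

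Agt and Npr1 stood farthest from the other untreated libraries in untreated 14, in opposite directions, and their promoters are shown for that reason. The sequences are the 250 bases before the RefSeq start site on GRCm38.p6, read on the gene's strand, which was the minus strand for both. The Agt window is chr8:124569707-124569956 and the Npr1 window is chr3:90465867-90466116, and no GENCODE exon lies in either. Capitals mark matches to the E-box CANNTG, the TATA box TATAAA and the GC box GGGCGG, searched on both strands.
Agt: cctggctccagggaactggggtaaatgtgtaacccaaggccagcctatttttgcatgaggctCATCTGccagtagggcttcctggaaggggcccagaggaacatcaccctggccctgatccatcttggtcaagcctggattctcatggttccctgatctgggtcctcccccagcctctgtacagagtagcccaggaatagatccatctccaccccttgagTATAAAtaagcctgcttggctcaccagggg
Npr1: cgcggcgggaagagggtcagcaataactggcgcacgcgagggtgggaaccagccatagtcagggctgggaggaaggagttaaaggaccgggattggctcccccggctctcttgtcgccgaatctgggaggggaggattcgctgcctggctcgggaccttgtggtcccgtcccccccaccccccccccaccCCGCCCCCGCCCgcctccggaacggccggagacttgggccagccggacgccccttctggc
The Agt window held 1 E-box 188 bases and 1 TATA box 30 bases before the start. The Npr1 window held neither, but 2 adjacent GC boxes, in reverse orientation, that begin 60 and 54 bases before the start. Its GC content was 70.4%, against 55.6% in the Agt window and a median of 52.4% over 32841 RefSeq promoter windows. Of those windows, 66.2% held an E-box, 12.4% a TATA box and 32.7% a GC box. The nuclear receptor motif AGGTCA (14.0% of windows) and the glucocorticoid receptor motif TGTTCT (16.1%) had no match in either window. A match is a description of letters and no evidence of binding.

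Agt, the only known precursor of angiotensin, was low and very uneven (chromosome 8, 124556534 to 124569706, GRCm38, minus strand). It measured 0.777, 6.28 and 0.161 FPKM across untreated 13, 14 and 15, and 1.49 and 1.23 FPKM across treated 17 and treated 33/35. Untreated 14 was high and untreated 15 low, a 39.1-fold range, and both treated values lay between those of untreated 14 and the other untreated libraries. Untreated 14 was 8.07-fold above untreated 13. Agt entered the test because of untreated 14: without that library its mean was 0.913 FPKM, under the minimum of 1 FPKM. Treated and untreated means were 1.36 ± 0.183 FPKM (SD, n = 2) and 2.40 ± 3.37 FPKM (SD, n = 3), whereas the log2 fold change, taken between means of log values, was 0.051 with an SE of 1.05 (limma adjusted p = 1).

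The sign of the Agt difference turned with single libraries. It was 1.01 without untreated 14, -0.19 without untreated 13, -0.67 without untreated 15 and -0.050 without treated 17. It was also -0.068 with a pseudocount of 1, -0.061 with median centring and -0.37 with quantile normalization. Agt ran with the skeletal muscle markers, in the order untreated 14, treated 17, treated 33/35, untreated 13 and untreated 15. A fit with the mean log2 level of those markers as a covariate left 2 residual degrees of freedom. It called 1431 genes higher and 492 lower. For Agt the fold change there was -1.22 on the log2 scale, with an SE of 0.38 (limma adjusted p = 0.0994). Untreated 14 had the largest muscle marker share and, as known when the genes were listed, the most Agt among untreated libraries. The fit is therefore no independent test of Agt. Markers of hepatocytes, the main source of circulating angiotensinogen, are given beside it: their summed level (6 of 6 matched, 3 above 0 in every library) was 2.49 FPKM for untreated 14, 13.6 and 6.13 FPKM for untreated 13 and 15, and 2.51 and 2.68 FPKM under treatment. The defining marker Alb measured 4.09, 0.934 and 1.08 FPKM untreated and 0.0853 and 0.248 FPKM treated, highest in untreated 13. Ahsg was listed at 0 in untreated 14 and treated 33/35, and Ttr and Fgb were listed at 0 in treated 33/35. Fibroblast markers (9 of 9, all above 0 in every library) summed to 832 FPKM for untreated 14, 724 and 274 FPKM for untreated 13 and 15, and 559 and 874 FPKM under treatment. Their part in the Agt values was not tested.

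Ace, which makes angiotensin II and degrades bradykinin, varied less than Agt but in the same order of libraries (chromosome 11, 105967945 to 105989964, plus strand). It measured 9.42, 19.5 and 5.92 FPKM across untreated 13, 14 and 15, and 15.0 and 10.5 FPKM across treated 17 and treated 33/35. Untreated 14 was 2.07-fold above untreated 13, and both treated values lay within the untreated range. The means were 11.6 ± 7.05 FPKM (SD, n = 3) untreated and 12.8 ± 3.22 FPKM (SD, n = 2) treated, a log2 fold change of 0.27 with an SE of 0.53 (limma adjusted p = 1). Without untreated 14 it was 0.71 (limma adjusted p = 0.427), without untreated 15 it was -0.11 and with the muscle covariate -0.33. The antisense gene Gm11651 overlaps exons of Ace and was listed at 0.0395 FPKM in treated 33/35 and at 0 in the other libraries.

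Ace is a marker of vascular endothelium, so vessel markers are given beside it. Endothelial markers (10 of 10, all above 0 in every library) summed to 318, 255 and 304 FPKM in untreated 13, 14 and 15. In the treated libraries they summed to 326 and 386 FPKM. The sum was lowest in untreated 14, where Ace was highest, but the list was divided. Of these 10 markers, 5 were lowest in untreated 14 and 1, Vwf, was highest there at 11.1 FPKM. Markers of smooth muscle and pericytes (10 of 10) ranged only from 260 to 293 FPKM and were highest in untreated 14. Of the 10, 4 were highest in untreated 14 (Acta2, Myh11, Tagln and Cnn1, which belong to the contractile apparatus of smooth muscle) and 3 were lowest there (Rgs5, Cspg4 and Kcnj8, markers of pericytes). The others, Pdgfrb, Mcam and Notch3, were neither highest nor lowest there. Acta2 measured 30.6, 62.3 and 17.2 FPKM untreated and 36.9 and 22.5 FPKM treated, whereas Rgs5 measured 117, 96.7 and 146 FPKM untreated and 124 and 118 FPKM treated. The part of these cells in the Ace values was not tested.

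The 2 angiotensin II receptors were far apart in level, and Agtr1a was lowest in the library with the most Agt. Agtr1a, the main AT1 receptor gene of rodents (chromosome 13, 30336441 to 30382867, plus strand), measured 2.79, 2.24 and 3.90 FPKM across untreated 13, 14 and 15, and 3.50 and 3.87 FPKM across treated 17 and treated 33/35. Untreated 14 was lowest and untreated 15 highest, with both treated values between them. The means were 2.98 ± 0.844 FPKM (SD, n = 3) untreated and 3.69 ± 0.260 FPKM (SD, n = 2) treated, a log2 fold change of 0.29 (SE 0.25, 95% interval -0.37 to 0.96, limma adjusted p = 1). Agtr1b, the near-identical second AT1 gene, was listed at 0 in 4 libraries and at 0.0202 FPKM in treated 17. How reads that fit both genes were divided was not given in the sources used here.

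Agtr2, the AT2 receptor gene on the X chromosome (21484544 to 21489164, plus strand), was at the edge of what these libraries can register. It measured 0.0130, 0 and 0.0148 FPKM across untreated 13, 14 and 15, and 0.0256 and 0.0136 FPKM across treated 17 and treated 33/35. After correction for relative depth these values were 1, 0, 1, 2 and 1 times the smallest step, within 0.165% of whole multiples, so no difference between libraries can be read from them. Agtr2 did not reach the minimum of 1 FPKM and was not tested. Ren1, the renin gene, was listed at 0 in 3 libraries and at 1 such step in untreated 14 (0.0352 FPKM) and treated 17 (0.0281 FPKM).

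The natriuretic receptors were far more abundant than the angiotensin receptors. Npr1, the receptor for the cardiac peptides ANP and BNP (chromosome 3, 90450591 to 90465866, minus strand), measured 38.1, 12.4 and 26.2 FPKM across untreated 13, 14 and 15, and 24.8 and 28.6 FPKM across treated 17 and treated 33/35. Untreated 14 was low, 2.11-fold below untreated 15, and the treated values lay inside the untreated range. The means were 25.6 ± 12.8 FPKM (SD, n = 3) untreated and 26.7 ± 2.64 FPKM (SD, n = 2) treated, a log2 fold change of 0.20 with an SE of 0.50 (limma adjusted p = 1). Without untreated 14 it came to -0.24 (limma adjusted p = 0.685). With the muscle covariate it was 0.77 (SE 0.21, limma adjusted p = 0.0776), in a fit that called 1431 genes higher and 492 lower.

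Npr1 was lowest in the library with the least brown adipocyte transcript. Ucp1, the uncoupling protein of brown fat, measured 1837, 227 and 1912 FPKM across untreated 13, 14 and 15, and 1119 and 1321 FPKM across the treated libraries. Adipoq, the adipocyte hormone adiponectin, measured 602, 332, 476, 408 and 561 FPKM in the same order of libraries. All 10 brown adipocyte markers were lowest in untreated 14. Of 9 general adipocyte markers, Adipoq among them, 8 were lowest there and 1, Retn, was highest at 113 FPKM. The part of adipocytes in the Npr1 values was not tested. The promoter shown above for Npr1 and that of Agt therefore belong to genes that were lowest and highest in the same library. The antisense gene Gm16048 overlaps exons of Npr1 and measured 3.09, 1.43 and 2.08 FPKM untreated and 2.37 and 3.11 FPKM treated, also lowest in untreated 14. Whether the counting used strand was not given, so reads of such pairs cannot be told apart.

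Npr2, the receptor for C-type natriuretic peptide (chromosome 4, 43631935 to 43651244, plus strand), was highest in untreated 14, where Npr1 was lowest. It measured 19.8, 31.8 and 18.9 FPKM across untreated 13, 14 and 15, and 23.6 and 21.3 FPKM across treated 17 and treated 33/35. Untreated 14 was 1.61-fold above untreated 13, and the libraries kept the order of the muscle markers. The means were 23.5 ± 7.24 FPKM (SD, n = 3) and 22.4 ± 1.66 FPKM (SD, n = 2), a log2 fold change of -0.027 with an SE of 0.28 (limma adjusted p = 1). It was 0.21 without untreated 14 and 0.047 without treated 33/35, and -0.34 with the muscle covariate (SE 0.097, limma adjusted p = 0.0822). The antisense gene Gm12473 overlaps Npr2 and was likewise highest in untreated 14, at 7.18 FPKM against 2.86 to 5.12 FPKM in the other libraries.

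Npr3, the clearance receptor (chromosome 15, 11839896 to 11907287, minus strand), was the steadiest of the 7 genes. It measured 63.9, 51.1 and 70.1 FPKM across untreated 13, 14 and 15, and 72.0 and 63.4 FPKM across treated 17 and treated 33/35, a 1.41-fold range. Untreated 14 was lowest, and the other 4 libraries lay close together. The means were 61.7 ± 9.70 FPKM (SD, n = 3) untreated and 67.7 ± 6.05 FPKM (SD, n = 2) treated, a log2 fold change of 0.14 with an SE of 0.20 (limma adjusted p = 1). Its 95% interval, -0.39 to 0.68, was the narrowest among the 6 members tested. The antisense gene Gm5144 overlaps exons of Npr3 but matched no identifier here, so its level beside Npr3 is unknown.

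The ratio of Npr1 to Npr3 was below 1 in every library. It was 0.595, 0.243 and 0.374 in untreated 13, 14 and 15 and 0.345 and 0.450 in treated 17 and treated 33/35. Untreated 14 was lowest and untreated 13 highest, so both treated libraries fell inside the untreated range. The mean ratio was 0.404 ± 0.178 (SD, n = 3) untreated and 0.398 ± 0.0745 (SD, n = 2) treated. On the log2 scale the treated mean differed by 0.059 (exact two-sided permutation p = 1, where 3 against 2 libraries cannot go below 0.2). The difference was -0.26 without untreated 14 and -0.13 without treated 33/35.

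Untreated 14 had the least Npr1 but the most Npr2. It did not stand apart in the sum of these 2 cyclase receptors relative to Npr3, but Npr3 was also lowest there, at 51.1 FPKM. Npr2 to Npr3 was 0.624 for untreated 14, against 0.269 to 0.335 elsewhere, and untreated 14 was the library in which Npr2 exceeded Npr1 (Npr1 to Npr2 ratio 0.390, against 1.05 to 1.93 elsewhere). The sum of Npr1 and Npr2 relative to Npr3 ran from 0.644 to 0.905, with untreated 14 at 0.866. Npr3 held 52.5% to 60.8% of the summed FPKM of the 3 receptors in all libraries, whereas Npr1 held 13.0% in untreated 14 and 20.6% to 31.3% elsewhere. The summed level of the 3 receptors was 95.3 FPKM in untreated 14 and 113 to 122 FPKM elsewhere.

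**Figure D2:**
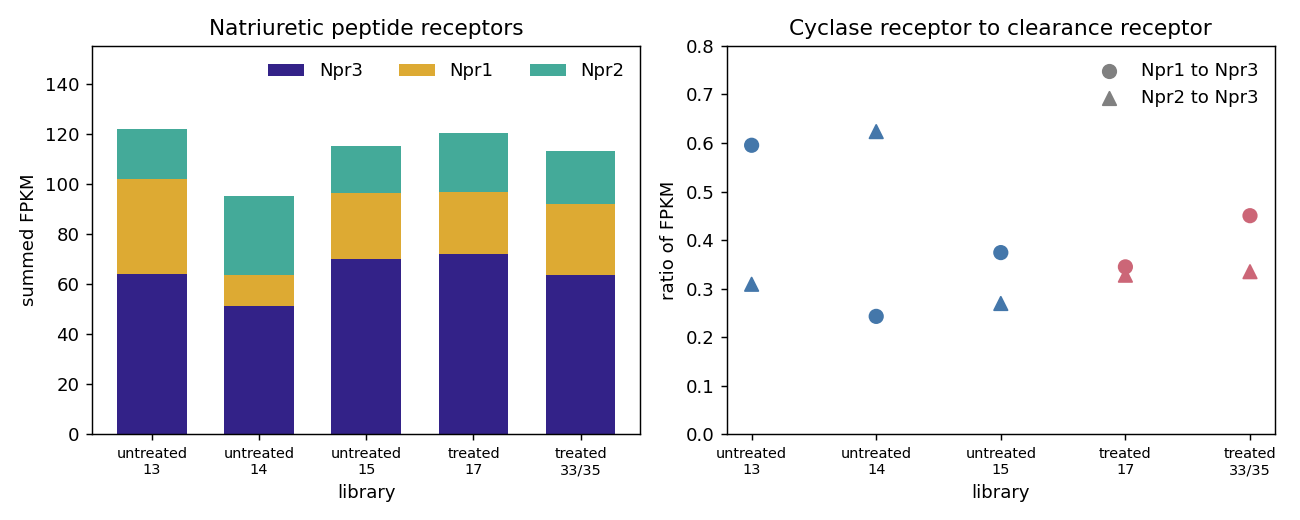
Left, FPKM of Npr3, Npr1 and Npr2 stacked for each library. Right, the ratio of Npr1 (circles) and of Npr2 (triangles) to Npr3 in each untreated (blue) and treated (red) library, where untreated 14 has the lowest Npr1 ratio (0.243) and the highest Npr2 ratio (0.624).

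None of the 6 members tested passed the comparison of treated with untreated libraries, and no member's groups were free of overlap. With limma, 0 of 6 had an adjusted p under 0.05 and 0 had an unadjusted p under 0.05. Over all 13527 genes, 0.0444% were called (0.0296% higher and 0.0148% lower) and 0.924% had an unadjusted p under 0.05, while 8.68% had groups that did not overlap. Of the 6 members, 5 had positive and 1 negative log2 fold changes, beside 8704 and 4823 of all genes tested. The members' median was 0.17, beside 0.061 for all genes tested. The 95% intervals ran from -2.70 to 2.80 for Agt, -1.11 to 1.65 for Ace and -0.76 to 0.70 for Npr2, so changes within these bounds could not be told from none. Over the alternatives the limma adjusted p ranged from 0.0994 to 1 for Agt, 0.412 to 1 for Ace, 0.0776 to 1 for Npr1 and 0.0822 to 1 for Npr2, the lowest in each case with the muscle covariate. That fit called 1431 genes higher and 492 lower.

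**Figure D3:**
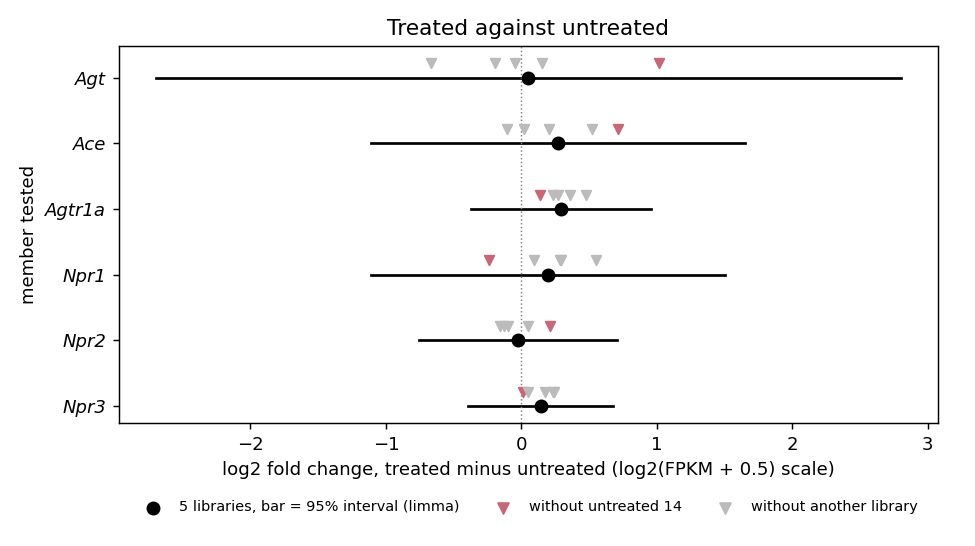
Log2 fold change of treated minus untreated libraries (horizontal axis, log2(FPKM + 0.5) scale) for the 6 members tested, with black points for the fit to 5 libraries and bars for its 95% interval. Triangles give the fit with 1 library left out, in red for untreated 14, where Agt lies at 1.01 and Npr1 at -0.24; every bar crosses 0.

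Untreated 14 divided the members evenly. Of the 6 tested, 3 (Agt, Ace and Npr2) were highest there and 3 (Agtr1a, Npr1 and Npr3) lowest, beside 33.5% and 43.9% of all genes tested. Agt and Ace were at least 2-fold above both other untreated libraries, as were 10.7% of all genes, and Npr1 was at least 2-fold below both, as were 12.5%. Agt, Ace and Npr2 had the full order untreated 14, treated 17, treated 33/35 and then the other untreated libraries, which 12.9% of all genes had, and 0 members had its reverse (10.8% of all genes). The order of Agt was known when the genes were listed, and Agt passed the 1 FPKM minimum only through untreated 14. These counts, which include Agt, are therefore descriptions, and no result about the members is drawn from them.

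**Figure D4:**
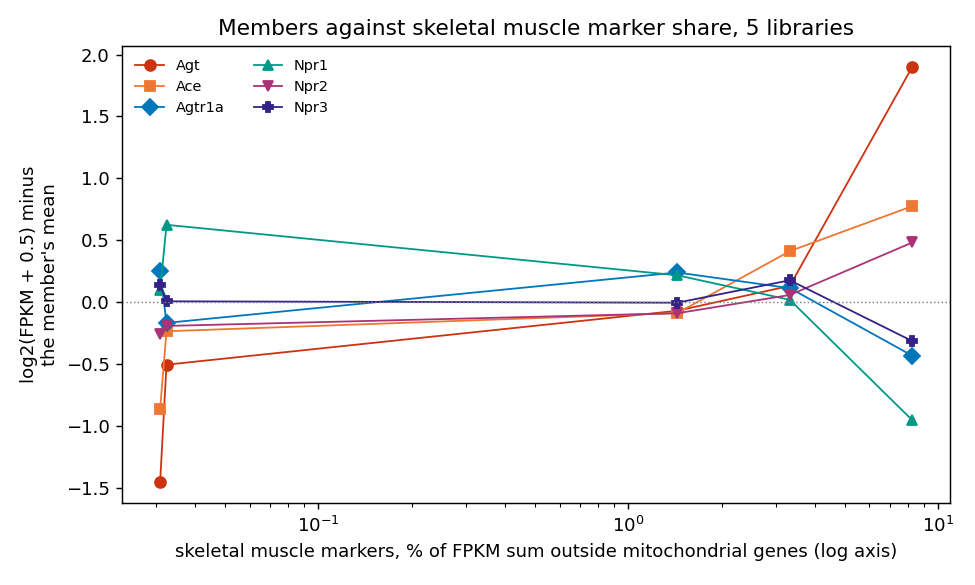
Level of each tested member as log2(FPKM + 0.5) minus its own mean (vertical axis) against the share of skeletal muscle markers in the FPKM sum outside mitochondrial genes (horizontal log axis) in the 5 libraries, with lines joining the libraries in order of that share. Agt, Ace and Npr2 are highest and Npr1, Agtr1a and Npr3 lowest at the right, in untreated 14 (8.25%), and the treated libraries lie at 1.44% and 3.32%.

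The rest of the renin-angiotensin pathway showed no called change either. Of 18 further genes, 11 were tested, and 0 rose and 0 fell (limma, 0 with an unadjusted p under 0.05), with a median log2 fold change of -0.0083. Cathepsin D (Ctsd), a lysosomal protease related to renin, was the most abundant at 612, 354 and 547 FPKM across untreated 13, 14 and 15, and 481 and 490 FPKM across the treated libraries. The aminopeptidases Rnpep and Lnpep, which trim angiotensin peptides, had log2 fold changes of -0.071 and -0.0083, and the renin receptor Atp6ap2 had -0.037, each with a limma adjusted p of 1.

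Some of these genes were separated between the groups. In 2 of the 11 both treated values lay above all untreated ones (5.50% of all genes) and in 1 below (3.18%). Cma1, the mast cell chymase, which can form angiotensin II without Ace, measured 3.79, 5.88 and 1.23 FPKM untreated and 6.78 and 7.27 FPKM treated (log2 fold change 1.06, SE 0.59, limma adjusted p = 1). The 5 mast cell markers, Cma1 among them, summed to 6.72 to 21.7 FPKM untreated and to 29.5 and 25.2 FPKM treated, and their part in the Cma1 values was not tested. Prcp, a carboxypeptidase that inactivates angiotensin II, measured 4.41 ± 0.520 FPKM (SD, n = 3) untreated and 5.75 ± 1.06 FPKM (SD, n = 2) treated. Anpep, aminopeptidase N, was lower in both treated libraries, at 4.09 and 4.81 FPKM against 5.02, 5.82 and 8.76 FPKM.

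Transcripts of the cardiac ligands of Npr1 were almost undetected in the tissue, while those of several peptide-processing proteases and of Pde3b were abundant. Nppb was listed at 0 in all 5 libraries and Nppa in 4, with 0.0668 FPKM in untreated 15. Mme (neprilysin) and Ide (insulin-degrading enzyme), proteases that break down natriuretic peptides, were the contrast: Mme measured 69.8, 16.4 and 72.6 FPKM untreated and 52.2 and 72.7 FPKM treated, and Ide 37.7 to 46.2 FPKM over the 5 libraries. Pde3b, a phosphodiesterase that cyclic GMP inhibits, measured 64.5, 18.9 and 63.3 FPKM untreated and 46.7 and 63.6 FPKM treated. Like Npr1, Mme, Ide and Pde3b were lowest in untreated 14. Furin, a protease that can process pro-CNP, measured 15.1 to 28.1 FPKM and was also lowest there. Of the 13 natriuretic and cyclic GMP genes tested, 6 were lowest in untreated 14, beside 43.9% of all genes tested.

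Of the 21 genes listed for natriuretic and cyclic GMP signalling, 20 matched, 13 were tested, and 0 rose and 0 fell (limma, 0 with an unadjusted p under 0.05). Their median log2 fold change was 0.27, with 11 positive and 2 negative. Over all genes tested the median was 0.061, with 8704 positive and 4823 negative. Pde9a, a phosphodiesterase specific for cyclic GMP, measured 0.812, 1.08 and 1.77 FPKM untreated and 2.10 and 1.83 FPKM treated, and was the 1 gene above all untreated values in both treated libraries (5.50% of all genes). Gucy1a2, a subunit of soluble guanylyl cyclase, was the 1 gene below them, at 0.922 and 0.826 FPKM against 1.12, 1.12 and 1.31 FPKM (3.18% of all genes). Vasp, a substrate of the cyclic GMP-dependent kinase, had a log2 fold change of 0.27 with an SE of 0.18 (limma adjusted p = 1).

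The genes whose library pattern lay closest to a member were found by the root mean square difference of centred log2(FPKM + 0.5) values over 5 libraries, among 11341 protein-coding genes. Closest to Agt were Maf, a bZIP transcription factor, Clu, the secreted chaperone clusterin, and Eda2r, a receptor of the TNF receptor family, with differences of 0.17, 0.17 and 0.19 beside a spread of 1.10 for Agt itself. Clu measured 9.99, 54.9 and 3.62 FPKM untreated and 16.6 and 11.7 FPKM treated. Within 0.2 of Agt lay 5 genes, within 0.2 of Npr1 512 genes and of Npr3 3295 genes. A fixed limit takes in more genes where the spread is small, and the spread was 0.52 for Npr1 and 0.17 for Npr3. The counts therefore do not rank the members, and likeness to Npr3 says little. Closest to Npr1 were Ptk2b, a calcium-regulated tyrosine kinase (0.023), Mrap, the accessory protein of the ACTH receptor (0.029), and Ube2w, a ubiquitin-conjugating enzyme (0.044). Mrap measured 144, 47.0 and 101 FPKM untreated and 98.5 and 110 FPKM treated. Closest to Npr3 were Maco1, Mrpl19, a mitochondrial ribosomal protein, and Sec24b, a component of the COPII coat, at 0.024, 0.034 and 0.036.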

How the data were processed

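Total RNA libraries of whole brown adipose tissue were deposited by the authors as 1 table per sample with FPKM values, per the file headers, for 45320 Ensembl identifiers. The submitters' processing notes list CASAVA 1.7 and GRCm38. The aligner and the quantification program are not given in the sources used here, nor is the annotation release. GENCODE M21 (GRCm38) supplied symbols and coordinates for 44395 identifiers, and RefSeq (GRCm38.p6) supplied promoter sequences for 6 of the 7 members. FPKM keep no read totals, so no counting interval or floor is given, and an exact 0 can be a failed estimate.

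The 13527 genes that averaged 1 FPKM or more in the 5 libraries were compared as log2(FPKM + 0.5) with limma 3.58.1 in R 4.3.3, with a variance trend, two-sided, Benjamini-Hochberg adjustment over all genes and a threshold of 0.05. A fold change on this scale understates the change of low genes. The Npr1 to Npr3 ratio was compared with an exact permutation test in Python 3.11.15 with scipy 1.17.1. The fit was checked on simulated data with known changes. Of genes changed by 1, 2 and 4 on the log2 scale, 4.48%, 44.8% and 77.3% were called. A gene that is not called may therefore still have changed.

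The members and lists were chosen with earlier results of these data known. Named were all members, of each of 2 pathway lists the 4 most abundant and the 3 tested genes of smallest p, and the 3 genes closest to Agt, Npr1 and Npr3. Other genes were named after their values were seen. Alternatives covered the pseudocount, filter, scaling, variance trend, array weights, a muscle covariate, the identical tables, protein-coding genes and each library left out. Pde2a and Acta1 matched no identifier and were not analysed here.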

Additional observations from a re-analysis of the deposited data

How the results depend on the processing

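The count of members past the threshold was 0 in all 17 alternatives, and the lowest limma adjusted p of any member was 0.0776, for Npr1 with the muscle covariate. Agtr1a kept a positive log2 fold change in 16 of 16 alternatives (0.135 to 0.508) and Npr3 in 17 of 17 (0.0140 to 0.305). Their SEs in the main fit were 0.254 and 0.204, and the alternatives reuse the same libraries. With 1 library left out, values ran from -0.67 to 1.01 for Agt, -0.11 to 0.71 for Ace, -0.24 to 0.55 for Npr1, -0.16 to 0.21 for Npr2 and -0.26 to 0.39 for the log2 ratio of Npr1 to Npr3. A lone treated library was assumed to vary like the untreated ones. Agt also changed sign with a pseudocount of 1 (-0.068), median centring (-0.061), quantile normalization (-0.37) and the muscle covariate (-1.22). So did Ace with the muscle covariate (-0.33), and Npr1 and Npr2 with array weights (-0.30 and 0.18). Median centring moved the median of all genes from 0.061 to -0.051. The cause of these changes was not tested. Over all genes, the 4 higher and 2 lower calls became 106 and 8 without untreated 14 and 1431 and 492 with the muscle covariate, and ran from 0 to 7 and 0 to 3 otherwise. With a minimum mean of 5 FPKM, Agt and Agtr1a were not tested. No paired analysis was possible because the groups share no replicate numbers.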

Other observations

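Further pathway genes with marked differences between libraries were picked out after their values were seen. Of the 11 renin-angiotensin genes tested, 2 (Nr3c2 and Thop1) had the order untreated 14, treated 17, treated 33/35 and then untreated 13 and 15, and 2 (Rnpep and Ctsd) had its reverse. Of the 13 natriuretic and cyclic GMP genes tested, 2 (Ostn and Prkg1) had this order and 0 its reverse, beside 12.9% and 10.8% of all genes. Ostn, which encodes the muscle peptide osteocrin, a ligand of NPR-C, measured 17.3 FPKM for untreated 14, 2.52 FPKM for treated 17 and 1.52 FPKM for treated 33/35, and was listed at 0 in untreated 13 and 15. Prkg1, the cyclic GMP-dependent kinase, measured 19.5 FPKM for untreated 14, 8.63 and 4.23 FPKM under treatment and 1.01 and 1.34 FPKM for untreated 13 and 15. Nppc, which encodes C-type natriuretic peptide, the ligand of Npr2, was at 0.691 FPKM for untreated 14, 0.138 and 0.0486 FPKM under treatment and listed at 0 in untreated 13 and 15. Nr3c2, the mineralocorticoid receptor, measured 6.48 FPKM for untreated 14, 4.40 and 4.36 FPKM under treatment and 2.89 and 3.28 FPKM for untreated 13 and 15.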
